A study of Danio rerio with 40 samples.

Results

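Genes for antigen presentation by MHC class I were examined in the brain and eye of adult zebrafish, comparing the cyp1b1 knockout line wh5 with wild-type (WT) fish. The 10 genes were taken by symbol from the authors' deposited tables, and all 10 are listed for both organs, out of 20454 genes listed in either. They are b2m and b2ml, which encode the light chain of the class I molecule, the heavy chain gene mhc1uba, the peptide transporter genes tap1 and tap2a, the tapasin gene tapbp.1, and the proteasome subunit genes psmb8a, psmb9a, psmb12 and psmb13a. Poly(A) RNA was sequenced in 40 samples that form 8 groups of 5 by organ, genotype and sex, which gives each organ 10 WT and 10 wh5 samples. Title and source field disagree on the organ in all 40 samples, and the title was followed. By the authors' deposited tables rhodopsin (rho), the rod opsin, had a base mean of 632710 in the table named for eye and 1359 in that named for brain, and the neuronal gene elavl3 had 3012 and 11919. The sources used here do not give the strain, the exact age, the relation of WT to wh5 fish, any pooling, or whether an eye and a brain came from the same fish.

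MHC class I molecules show peptides from inside the cell to cytotoxic T cells. Proteasomes cut proteins into peptides, the TAP transporter carries these into the endoplasmic reticulum, tapasin helps to load them, and the heavy chain reaches the surface together with beta-2-microglobulin. Interferons raise transcription of most of these genes and lead to the exchange of the standard catalytic proteasome subunits for inducible ones, which forms the immunoproteasome. In zebrafish several class I genes lie close together with inducible proteasome and transporter genes, and this region is known to differ in gene content and sequence between haplotypes.

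For each gene the deposited tables give a base mean (the mean of normalised counts over all samples of that organ), a log2 fold change of wh5 over WT, its standard error (SE) and an adjusted p. They hold no value of a single sample, so sexes, replicates and the overlap of groups could not be examined and the depth of each library is unknown. The threshold for a call was a deposited adjusted p below 0.05, and 95% intervals were computed from the deposited SEs. The log2 fold change of the target gene itself, cyp1b1, was -0.17 (SE 0.14, adjusted p = 0.818) in brain and 0.54 (SE 0.14, adjusted p = 0.016) in eye by the authors' deposited tables. In eye cyp1b1 was thus called as higher in wh5. It was not called with an empirical null, which rescales the test statistics by their own median and spread (adjusted p = 0.464). Its transcript level therefore does not check the genotype labels. None of the 10 class I genes lies on chromosome 13, which holds cyp1b1, in the GRCz12tu gene table. By the authors' deposited table for brain, log2 estimates for wh5 over WT were -2.39 (SE 1.27, adjusted p = 0.612) for rho and -2.36 (SE 1.11, adjusted p = 0.516) for the rod transducin gene gnat1. By the same table of the authors they were -3.05 (SE 0.86, adjusted p = 0.0497) for the cone transducin gene gnat2 and -1.54 (SE 0.94, adjusted p = 0.696) for the photoreceptor gene crx. Of these retinal genes only gnat2 was called, and not with the empirical null (adjusted p = 0.171) or without chromosome 13 (adjusted p = 0.0796). Whether retinal RNA in the brain samples differed between genotypes was not tested. Of the listed organ markers 11 of 13 were below 0 in brain and 9 of 14 in eye, with gnat2 the 1 call, and the pigment epithelium gene rpe65a stood at -0.11 (SE 0.52) in brain by the authors' deposited table.

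In the eye, b2m was higher in wh5 by 1.41-fold, and it was the only one of the 10 class I genes called there. In the brain none of the 10 was called. In the eye the 4 proteasome genes and tap2a had estimates of 2.09-fold to 2.57-fold, none of which passed the test. Each of these 5 estimates had a 95% interval that included no difference. The heavy chain gene mhc1uba had estimates below 0 on the log2 scale in both organs and was called in neither. Over all genes 1.67% were called in eye and 0.736% in brain, and counts of 1 and 0 among 10 genes do not set the class I genes apart from that background. At an unadjusted p below 0.05 there was 1 of the 10 in brain (b2ml, background 8.62%) and 1 in eye (b2m, background 14.2%).

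**Figure D1:**
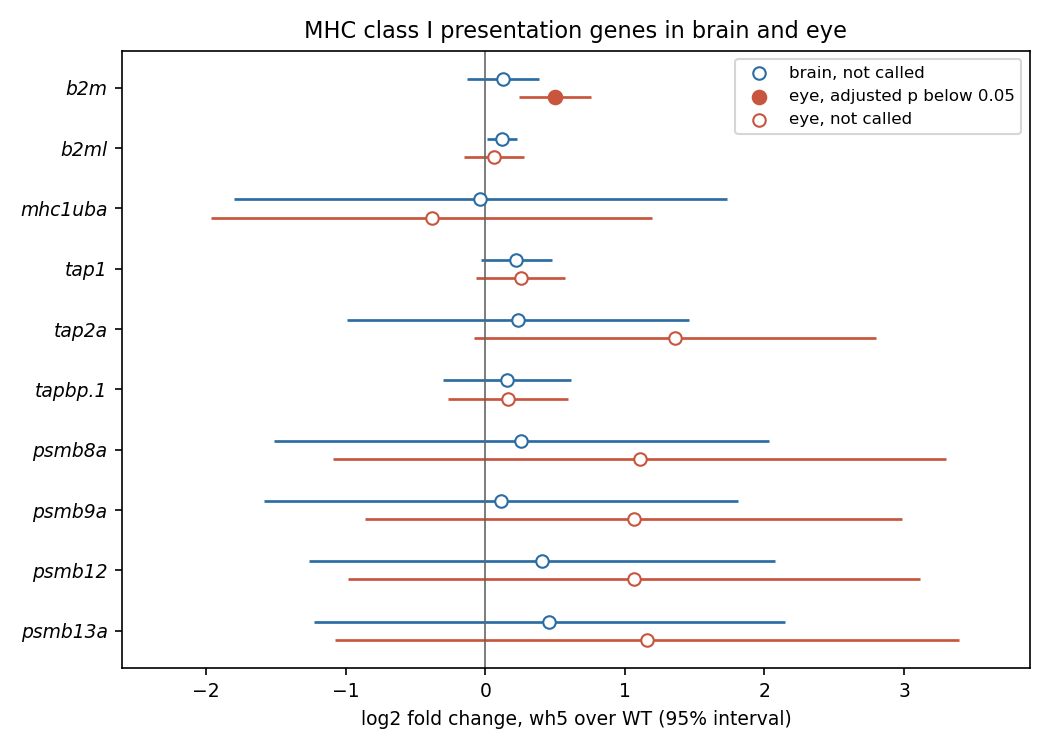
Log2 fold change of wh5 over WT for the 10 class I genes in brain (blue) and eye (red), with 95% intervals from the deposited SEs. Filled points have an adjusted p below 0.05. Only b2m in eye is filled, and the intervals of mhc1uba, tap2a and the 4 proteasome genes span several log2 units.

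The light chain genes had SEs of 0.06 to 0.13, against medians over all genes of 0.128 in brain and 0.143 in eye. The log2 fold change of b2m in eye was 0.50 (SE 0.13, adjusted p = 0.015) by the authors' deposited table, from DESeq2, with a base mean of 9454. As a fold, its 95% interval ran from 1.18 to 1.69. When the test statistics of all eye genes were rescaled to their own centre and spread (an empirical null, by which 0.196% of genes were called), the adjusted p of b2m became 0.443. With Bonferroni adjustment, by which 0.252% of genes were called, b2m was not called either. For brain the authors' deposited table gives b2m 0.13 (SE 0.13, adjusted p = 0.874) and a base mean of 3567. Base means of the organs were normalised separately, and RNA from whole organs cannot tell more cells of a type from more RNA per cell.

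The second light chain gene, b2ml, stood in eye at 0.06 (SE 0.11, adjusted p = 0.847) on the log2 scale in the authors' deposited table, with a base mean of 13624. Its 95% interval in eye, from 0.901-fold to 1.21-fold, did not include the estimate for b2m, but the intervals of both genes overlap and the difference between the genes was not tested. In brain b2ml stood at 0.12 (SE 0.06, adjusted p = 0.477) on the log2 scale by the authors' deposited table, with a base mean of 9604. The interval there ran from 1.01-fold to 1.17-fold.

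The heavy chain gene mhc1uba was measured with a wide error. Its log2 fold change in brain was -0.03 (SE 0.90, adjusted p = 0.996) with a base mean of 68.9, and in eye -0.38 (SE 0.80, adjusted p = 0.882) with a base mean of 254, in the authors' deposited tables. The eye interval ran from 0.257-fold to 2.29-fold, which leaves room for a large difference in either direction. Of 13 other class I heavy chain genes in either table, 7 were listed in brain and all 13 in eye, and none was called in either organ. At an unadjusted p below 0.05 there were 0 of these in brain (background 8.62%) and 2 in eye (background 14.2%). With an empirical null, by which 0.399% of brain genes were called, none of these was called in either organ. Their median log2 fold change was 0.04 in brain and 0.22 in eye, where 11 of 13 were above 0. Over all genes the medians were 0.00 in brain and 0.01 in eye. The SEs of the other heavy chain genes ran from 0.083 to 0.616 in brain (median 0.112) and from 0.087 to 1.54 in eye (median 0.312). The largest in eye was that of mhc1lba, with a base mean of 9.24. For mhc1uma, with a base mean of 72.2, the SE in eye was 0.66. At such SEs only a large difference could have been called. In eye mhc1uka, which lies between the tapasin genes, had 0.94 (SE 0.36, adjusted p = 0.162) and the Z-lineage gene mhc1zba had 0.25 (SE 0.09, adjusted p = 0.109), as log2 values from the authors' deposited table. These were the 2 with an unadjusted p below 0.05. Another Z-lineage gene, mhc1zda, had 0.18 (SE 0.10, adjusted p = 0.413) and the L-lineage gene mhc1laa had 0.10 (SE 0.11, adjusted p = 0.749) in eye by the authors' deposited table.

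The peptide transporter is a pair of TAP chains, and only the tap2a chain was measured with a wide error. The estimate for tap2a in eye was the highest of the 10 class I genes, 1.36 (SE 0.73, adjusted p = 0.383) on the log2 scale by the authors' deposited table, with a base mean of 138. Its interval ran from 0.947-fold to 6.96-fold. In brain tap2a stood at 0.23 (SE 0.62, adjusted p = 0.962) by the authors' deposited table, with a base mean of 42.3. The partner chain tap1 had similar estimates in both organs, 0.22 (SE 0.13, adjusted p = 0.665) in brain and 0.25 (SE 0.16, adjusted p = 0.5003) in eye on the log2 scale by the authors' deposited tables. Base means of tap1 were 309 in brain and 350.1 in eye, by the authors' deposited tables.

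Tapasin (tapbp.1) stood at 0.16 (SE 0.23, adjusted p = 0.923) in brain and 0.17 (SE 0.22, adjusted p = 0.791) in eye on the log2 scale by the authors' deposited tables. Base means of tapbp.1 were 179 in brain and 174 in eye, by the authors' deposited tables. For tap1, tapbp.1, b2m and b2ml the 95% intervals lay within a 2-fold difference in either direction in both organs, and for the other 6 genes they did not in either organ. Of the 4 other transporter and tapasin genes none was called in either organ. At an unadjusted p below 0.05 there were 1 in brain (background 8.62%) and 2 in eye (background 14.2%). The median of these 4 was 0.07 in brain and 0.23 in eye. Among them the tapasin-related gene tapbpl, whose product edits peptides, had 0.40 (SE 0.17, adjusted p = 0.391) in brain and 0.58 (SE 0.18, adjusted p = 0.0675) in eye by the authors' deposited tables. The transporter-like gene abcb9 had 0.25 (SE 0.10), tap2t 0.21 (SE 0.12) and tapbp.2 0.15 (SE 0.19) in the eye, on the log2 scale of the authors' deposited table.

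The 4 proteasome genes had nearly equal estimates in eye, all with errors near the size of the estimate. Eye values of psmb8a, the inducible counterpart of psmb5, were 1.11 (SE 1.12, adjusted p = 0.715) on the log2 scale and a base mean of 370.5 in the authors' deposited table. For psmb9a, the inducible counterpart of psmb6, they were 1.06 (SE 0.98, adjusted p = 0.681) and 196 in the authors' deposited table. For psmb12 they were 1.07 (SE 1.05, adjusted p = 0.705) and 199.6, likewise from the authors' deposited table. The class I region subunit gene psmb13a had 1.16 (SE 1.14, adjusted p = 0.706) and 250.5 by the authors' deposited table. The fold intervals of these genes all included 1, and that of psmb8a ran from 0.469 to 9.87. The 4 values cannot be taken as independent measurements, and whether they vary together over samples was not tested. In the GRCz12tu table the genes are neighbours, and the annotated spans of psmb13a and psmb8a overlap each other and those of psmb12 and psmb9a. The span of psmb13a also overlaps that of tap2a. The sources used here do not say how reads in overlapping genes were counted.

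In brain the same 4 proteasome genes had smaller estimates with errors almost as wide. Log2 fold changes were 0.26 (SE 0.90) for psmb8a and 0.11 (SE 0.87) for psmb9a by the authors' deposited table, with base means of 98.5 and 59.4. They were 0.41 (SE 0.85) for psmb12 and 0.46 (SE 0.86) for psmb13a by the authors' deposited table, with base means of 59.8 and 70.4. Adjusted p ran from 0.942 for psmb13a to 0.988 for psmb9a in the authors' deposited table for brain.

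The only other inducible subunit gene matched by symbol, psmb10, lies on chromosome 4 and was measured with a smaller error. It stood at -0.46 (SE 0.16, adjusted p = 0.229) in brain and 0.19 (SE 0.13, adjusted p = 0.506) in eye on the log2 scale by the authors' deposited tables. The standard catalytic subunits psmb5, psmb6 and psmb7, which the inducible ones replace, were called in neither organ and had no unadjusted p below 0.05. In eye they stood at 0.02 (SE 0.10) for psmb5, 0.19 (SE 0.11) for psmb6 and 0.01 (SE 0.11) for psmb7 by the authors' deposited table. The other 12 subunits of the proteasome core had a median of -0.08 in brain, with 11 of 12 below 0, and 0.18 in eye, with 12 of 12 above 0. None of these 12 was called in either organ. At an unadjusted p below 0.05 there were 2 in brain (background 8.62%) and 3 in eye (background 14.2%). Eye values of the 12 reached at most 0.24 (SE 0.10) for psma1 by the authors' deposited table. The core genes psmb4, psma8 and psma3 stood at 0.18 (SE 0.11), 0.18 (SE 0.08) and 0.11 (SE 0.10) in eye by that deposited table of the authors.

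The size of the error set 6 of the 10 genes apart. In chromosomal order mhc1uba, psmb8a, psmb13a, psmb12, psmb9a and tap2a follow each other on chromosome 19, with no other measured gene placed between them in the GRCz12tu table. Their SEs ran from 0.624 to 0.90 in brain and from 0.734 to 1.14 in eye. The median SE over all genes was 0.128 in brain and 0.143 in eye. All 6 had base means between 40 and 400, and in that range the median SE was 0.156 over 6798 genes in brain and 0.166 over 7430 genes in eye. An SE at least as large as the smallest of the 6 was found in 2.16% of these genes in brain and in 1.17% in eye. The 6 genes and the range were put together after values were seen, so these shares are a description and no test was made.

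**Figure D2:**
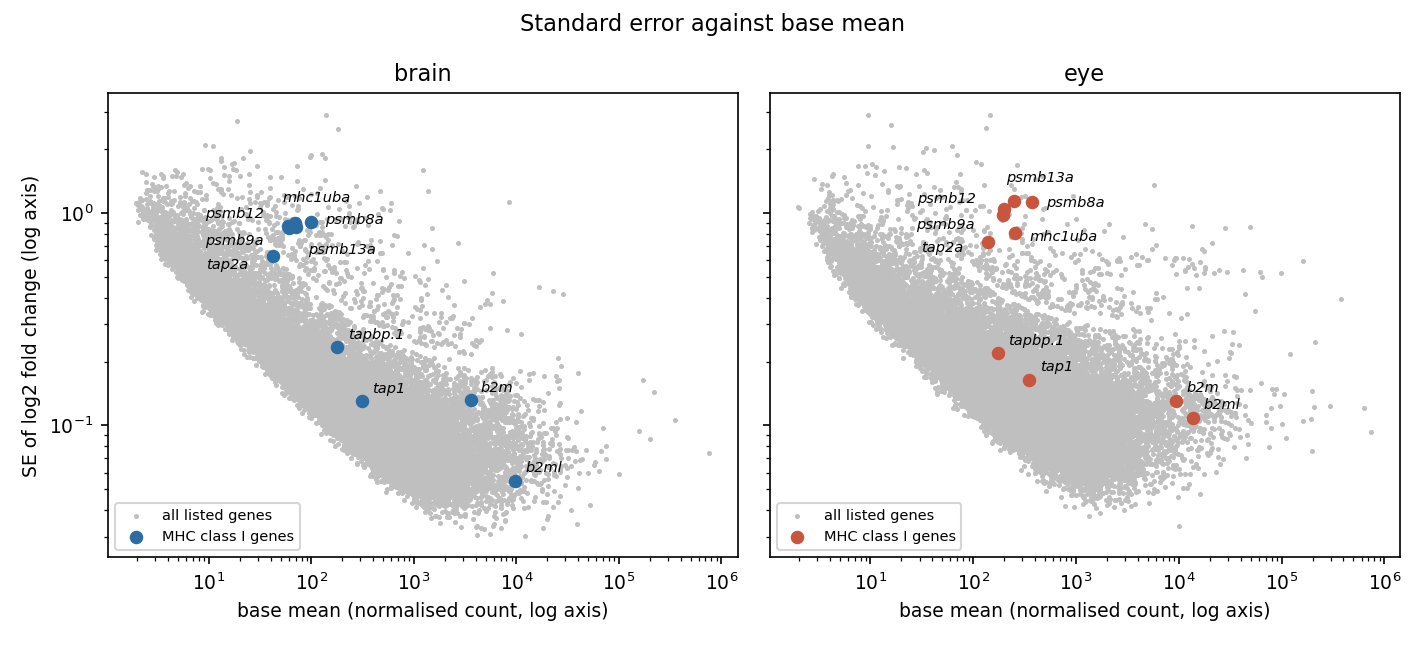
SE of the log2 fold change against base mean, both on log axes, for all listed genes (grey) and the 10 class I genes (coloured) in brain and eye. The genes mhc1uba, tap2a and the 4 proteasome genes lie above most genes of like base mean, while tap1 and tapbp.1 lie among them.

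The large error stopped at both ends of the 6 genes. On one side the next measured gene, the tapasin gene tapbp.2, had an SE of 0.19 in brain and 0.19 in eye, and mhc1uka beyond it had 0.30 and 0.36, in the authors' deposited tables. On the other side the chromatin reader gene brd2a had 0.05 in brain and 0.05 in eye in the authors' deposited tables. The neighbours of the 7 class I genes on chromosome 19, that is 12 genes to either side and those in between, had a median SE of 0.134 over 25 genes in brain and 0.162 over 26 genes in eye. The largest among these neighbours was 0.51 in brain (col11a2) and 0.36 in eye (mhc1uka). At an unadjusted p below 0.05 there were 2 of these neighbours in brain (background 8.62%) and 5 in eye (background 14.2%). Of these neighbours 0 were called in brain and 1 in eye. Over all genes 1.67% were called in eye and 0.736% in brain. The called neighbour was the metabolite repair gene naxe, at 0.34 (SE 0.10, adjusted p = 0.0391) on the log2 scale in the authors' deposited table. It was not called under the empirical null (adjusted p = 0.64). The median log2 fold change of these neighbours was 0.02 in brain and 0.01 in eye. Gene order comes from assembly GRCz12tu while the submitters' processing notes name GRCz11, so order and overlap may differ in the annotation used for counting and no coordinates are given. Whether fish differed in haplotype here was not tested, since no value of a single fish is in the tables.

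**Figure D3:**
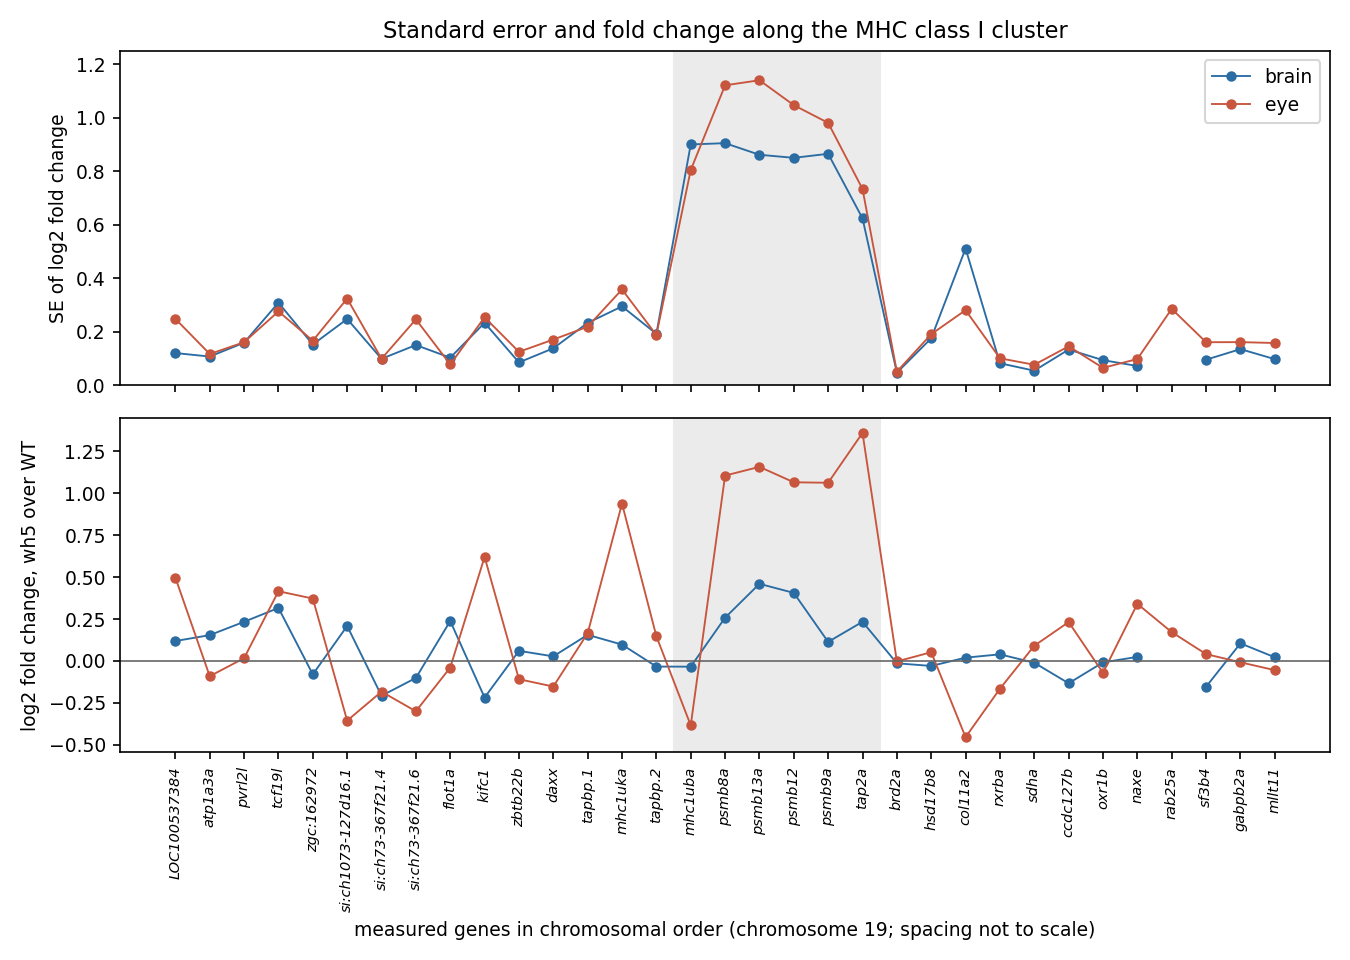
SE (top) and log2 fold change of wh5 over WT (bottom) for measured genes in their order along chromosome 19, in brain (blue) and eye (red). The shaded genes, mhc1uba to tap2a, have SEs of 0.624 to 1.14, and the genes on either side have SEs of at most 0.51.

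The error sets what could have been called. With the smallest test statistic that was called in each organ, 3.56 in brain and 3.34 in eye, these 6 genes needed a difference of 4.67-fold to 9.35-fold in brain and of 5.47-fold to 14.02-fold in eye. For b2m a difference of 1.38-fold in brain and 1.35-fold in eye was enough. For tap1 the same limit was 1.38-fold in brain and 1.46-fold in eye, and for tapbp.1 it was 1.78-fold and 1.66-fold. An estimate of 2-fold in psmb8a, psmb9a, psmb12, psmb13a, tap2a or mhc1uba was therefore too small to be called at these SEs, whereas it would have been called in b2m, b2ml, tap1 or tapbp.1.

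The effect of genotype was not shown to differ between organs for any of the 10 genes. Eye minus brain, the log2 fold changes of b2m differed by 0.37 (95% interval 0.01 to 0.73), with an adjusted p of 0.607 from a two-sided normal test adjusted over 18275 genes. For tap2a the difference was 1.13 (interval -0.76 to 3.01), for psmb8a 0.85 (interval -1.98 to 3.67) and for b2ml -0.06 (interval -0.30 to 0.18). By this test 0.0821% of all genes differed between organs. At an unadjusted p below 0.05 only b2m of the 10 passed (background 8.19%), and with an empirical null none of the 10 did (background 0.00547%). The median log2 fold change of the 10 genes was 0.19 in brain and 0.78 in eye, and 9 of 10 were above 0 in each organ, against 49.5% and 51.9% of all genes. The exception was mhc1uba in both organs. The largest estimates in eye were those of psmb8a, psmb9a, psmb12, psmb13a and tap2a, adjacent genes with SEs from 0.73 to 1.14. The 10 genes therefore cannot be taken as 10 separate measurements, and the count and the medians are descriptions without a test.

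Of other genes of the class I route, 1 of 13 trimming and folding genes and 1 of 5 proteasome activator genes were called in eye. Each was higher in wh5. Over all genes 1.67% were called in eye, 0.973% higher and 0.7% lower in wh5. The aminopeptidase gene erap1b, whose product trims peptides in the endoplasmic reticulum, rose in the authors' deposited table for eye, with a log2 value of 0.75 (SE 0.17, adjusted p = 0.00205). It was the only one called of 13 trimming and folding genes, whose median was -0.11 in eye and -0.01 in brain. In eye 9 of the 13 were below 0. The folding genes were not called in either organ, with canx at -0.08 (SE 0.07), hspa5 at -0.08 (SE 0.15), calr3a at 0.10 (SE 0.13) and pdia3 at -0.14 (SE 0.14) in the authors' deposited table for eye. In brain 3 of the 13 had an unadjusted p below 0.05 (background 8.62%), all lower in wh5. Among them were hspa5 at -0.22 (SE 0.07, adjusted p = 0.143) and calr3a at -0.14 (SE 0.07, adjusted p = 0.574) by the authors' deposited table. The proteasome activator gene psme2, whose interferon-inducible product opens the proteasome core, rose in eye, with 0.53 (SE 0.15, adjusted p = 0.0345) by the authors' deposited table. It was 1 of 5 activator genes, and the list's median was 0.09 in eye and 0.06 in brain, where none was called. Its partner psme1 had 0.40 (SE 0.14, adjusted p = 0.12) in eye by the authors' deposited table. The other activator genes had -0.03 (SE 0.11) for psme3, 0.09 (SE 0.10) for psme4a and 0.00 (SE 0.08) for psme4b in eye, again by the authors' deposited table.

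In the authors' deposited table for brain erap1b stood at 0.14 (SE 0.09) and psme2 at 0.13 (SE 0.15), neither called. The difference between organs was not called for either gene in the normal test, at 0.61 for erap1b (adjusted p = 0.286) and 0.40 for psme2 (adjusted p = 0.63). An error correlation of 0.5 between the organs was also tried, a value that was assumed and not measured. With it the difference of erap1b was called (adjusted p = 0.00476) and that of psme2 was not (adjusted p = 0.0911). With this correlation 3.98% of all genes were called, against 0.0821% without it. With an empirical null and no such correlation, the difference of erap1b had an adjusted p of 0.986. With an empirical null neither held its call in eye, with an adjusted p of 0.219 for erap1b and 0.623 for psme2.

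Among 25 regulators of class I genes, 1 was called in eye (background 1.67%) and none of 24 in brain (background 0.736%). This was stat1b, a transducer of interferon signals, at 1.22 (SE 0.27, adjusted p = 0.00152) by the authors' deposited table, a call lost under the empirical null (adjusted p = 0.192). In brain stat1b stood at -0.06 (SE 0.72, adjusted p = 0.993) by the authors' deposited table, where a call needed a 5.89-fold difference. The difference of stat1b between organs was not called in the normal test (adjusted p = 0.682). The list's median was 0.17 in eye and 0.01 in brain. In eye 20 of 25 were above 0 and 5 below, from -0.16 to 1.22. The interferon signalling genes with the largest base means stood at -0.16 (SE 0.10) for jak1, 0.21 (SE 0.09) for stat1a, -0.08 (SE 0.09) for ifngr1l and 0.07 (SE 0.15) for jak2a in the authors' deposited table for eye. The class I transactivator gene nlrc5 had 0.18 (SE 0.15, adjusted p = 0.61) and the MHC promoter factor gene rfx5 had 0.03 (SE 0.09, adjusted p = 0.935) in eye by the authors' deposited table. By the same table irf1b had 0.59 (SE 0.19, adjusted p = 0.0817) in eye.

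Class II presentation is the route by which professional antigen-presenting cells show peptides from outside. It had 1 called gene of 10 in eye (background 1.67%) and none of 9 in brain (background 0.736%). The lysosomal thiol reductase gene ifi30 rose in eye, at 0.64 (SE 0.17, adjusted p = 0.0172) by the authors' deposited table, and was not called under the empirical null (adjusted p = 0.476). The list's median was 0.46 in eye and -0.05 in brain. In eye 8 of 10 were above 0 (background 51.9%) and 4 had an unadjusted p below 0.05 (background 14.2%). The invariant chain genes had 0.31 (SE 0.17, adjusted p = 0.382) for cd74a and 0.55 (SE 0.18, adjusted p = 0.0758) for cd74b in eye by the authors' deposited table. In eye mhc2dab had 0.38 (SE 0.39) and mhc2b 1.08 (SE 1.198) by the authors' deposited table. By the same table mhc2dbb, which is not listed for brain, had 1.08 (SE 0.33, adjusted p = 0.0572) with a base mean of 29.8. The class II beta chain gene mhc2b, which lies on chromosome 8, had SEs of 1.14 in brain and 1.198 in eye in the authors' deposited tables, above those of all 6 adjacent class I genes in the same organ.

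**Figure D4:**
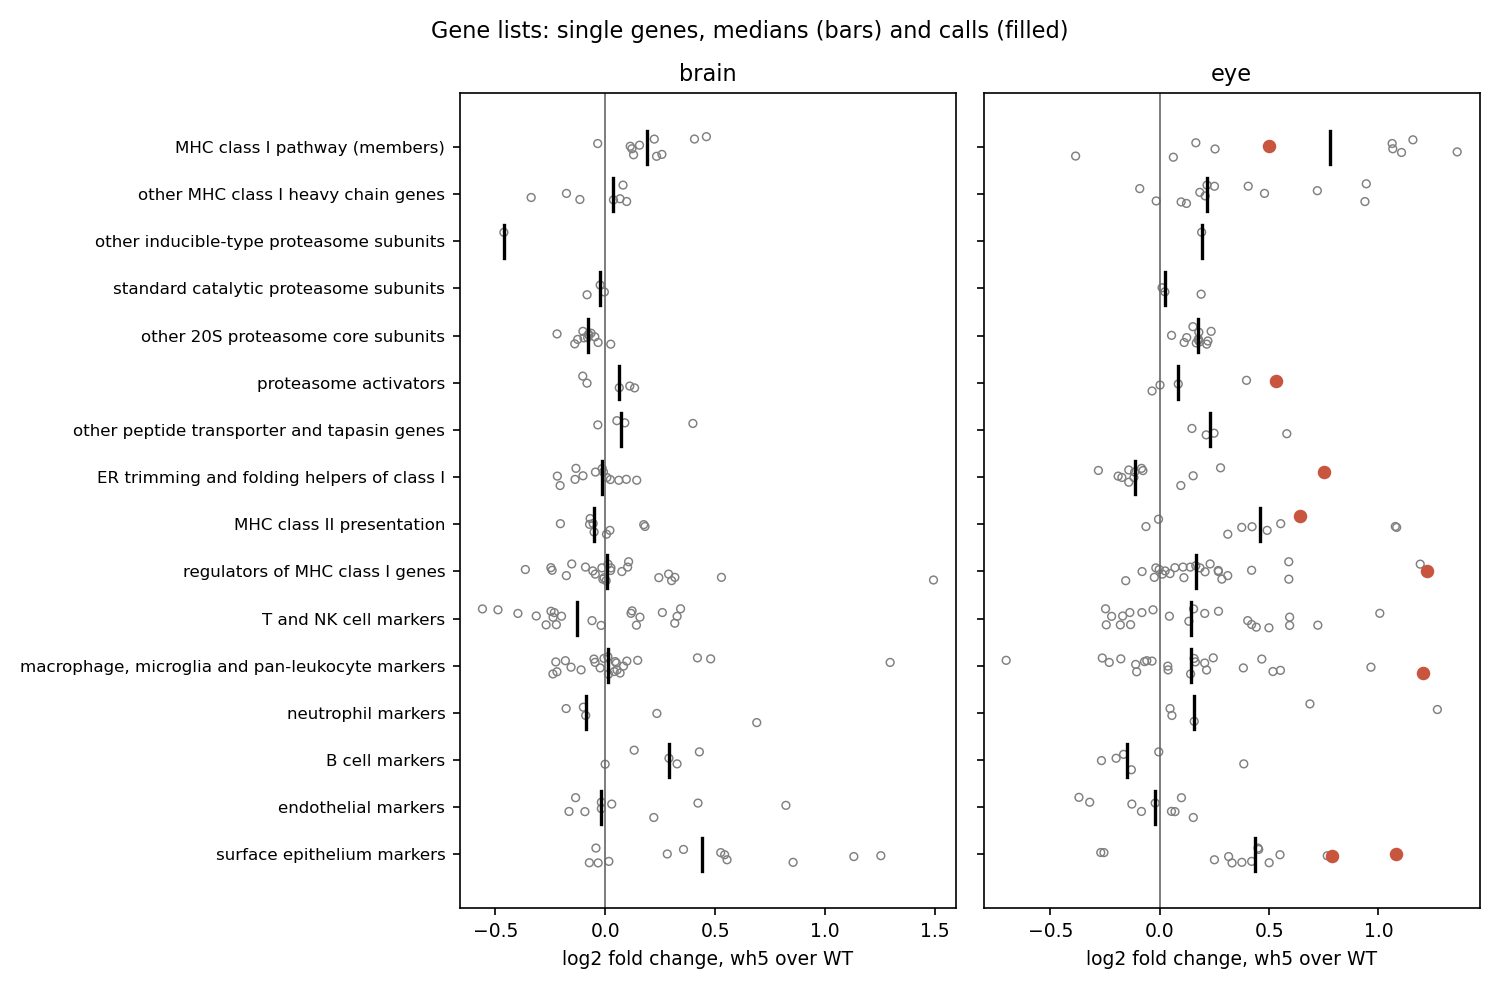
Log2 fold change of wh5 over WT for every measured gene of each list other than the organ markers in brain (left) and eye (right). Bars mark list medians and filled points have an adjusted p below 0.05. The filled points are b2m, psme2, erap1b, ifi30, stat1b, mpeg1.2, icn2 and krt97, all in eye.

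Markers of cells that could carry class I RNA included called genes in eye, and their part in the b2m result was not tested. Of 23 macrophage, microglia and pan-leukocyte markers 1 was called in eye (background 1.67%). This was the macrophage pore-forming gene mpeg1.2, at 1.203 (SE 0.33, adjusted p = 0.022) by the authors' deposited table. It was not called under the empirical null (adjusted p = 0.525). That list had a median of 0.14 in eye and 0.01 in brain. In eye 14 of the 23 were above 0 and 9 below, from -0.70 to 1.203, and of 4 with an unadjusted p below 0.05, 3 were higher and 1 was lower. The genes of this list with the largest base means stood at 0.21 (SE 0.12) for apoeb, -0.11 (SE 0.12) for aif1l, 0.14 (SE 0.21) for lgals3bpb and 0.97 (SE 0.60) for grn1 in the authors' deposited table for eye. The related gene mpeg1.1 stood at 0.04 (SE 0.26) there, and the lowest value was that of havcr1, -0.70 (SE 0.27), both from the authors' deposited table. Besides mpeg1.2, those higher with an unadjusted p below 0.05 were spi1a and coro1a. By the authors' deposited table spi1a had 0.55 (SE 0.17, adjusted p = 0.0513) and coro1a 0.52 (SE 0.18, adjusted p = 0.119) in eye. The lower gene at that threshold was havcr1. T and NK cell markers had a median of 0.14 over 22 genes in eye and -0.13 over 20 in brain, none called. In eye 13 of the T and NK genes were above 0 and 9 below, and those with the largest base means stood at 0.13 (SE 0.26) for runx3, -0.25 (SE 0.16) for prf1.5, -0.13 (SE 0.22) for il2rb and -0.18 (SE 0.18) for tbx21 by the authors' deposited table. The highest of the 22 was the co-receptor gene cd8a, which marks the T cells that read class I, at 1.01 (SE 0.36, adjusted p = 0.122) with a base mean of 24.4 in the authors' deposited table for eye, and it is not listed for brain. Neutrophil markers had a median of 0.16 over 5 genes in eye, with the myeloperoxidase gene mpx at 1.27 (SE 0.47, adjusted p = 0.148) by the authors' deposited table, and -0.09 over 5 in brain, none called. Other neutrophil genes stood at 0.16 (SE 0.26) for mmp9, 0.05 (SE 0.35) for csf3r and 0.69 (SE 0.38) for npsn in eye by the authors' deposited table.

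B cell markers had medians of -0.15 over 6 genes in eye and 0.29 over 5 in brain, and endothelial markers -0.02 and -0.02 over 9 genes, none called. In eye blnk stood at 0.38 (SE 0.42), cd22 at 0.00 (SE 0.41), cd79a at -0.27 (SE 0.33) and igic1s1 at -0.17 (SE 0.58) among B cell genes of the authors' deposited table. Endothelial genes stood at -0.08 (SE 0.11) for kdrl, -0.32 (SE 0.14) for cdh5, 0.10 (SE 0.20) for cldn5b and -0.37 (SE 0.14) for tie1 in that table deposited by the authors. The median of surface epithelium markers was 0.43 over 14 genes in eye and 0.44 over 12 in brain. In eye the keratin gene krt97 at 1.08 (SE 0.28, adjusted p = 0.0139) and the calcium-binding gene icn2 at 0.79 (SE 0.21, adjusted p = 0.0192) were called in the authors' deposited table, neither of them under the empirical null. These were 2 of 14 epithelium genes, against 1.67% of all genes. The keratin genes krt5 and krt15 stood at 0.38 (SE 0.25) and 0.42 (SE 0.24) and icn at 0.50 (SE 0.21) in eye, by the authors' deposited table. Where no gene of a list was called by the deposited DESeq2 values, the number with an unadjusted p below 0.05 in eye was 2 for T and NK cell markers, 1 for neutrophils, 0 for B cells and 2 for endothelium. For lists with a call it was 2 of 13 trimming and folding genes, 2 of 5 activators and 6 of 25 regulators. It was 4 of 10 for class II genes, 5 of 14 for surface epithelium and 4 of 23 for macrophage, microglia and pan-leukocyte markers. In these lists with a call such genes were higher in wh5, except 1 trimming and folding gene and 1 macrophage, microglia and pan-leukocyte gene (havcr1). Over all genes the share in eye was 14.2%, and no list was tested as a set. In brain the number with an unadjusted p below 0.05 was 3 for trimming and folding genes, 0 for activators, 2 for regulators, 0 for class II genes, 0 for T and NK cells, 1 for macrophages and leukocytes, 0 for neutrophils, and 1, 1 and 0 for B cells, endothelium and surface epithelium. The share over all genes in brain was 8.62%. With an empirical null no gene of any list was called in either organ. Because the tables hold no group levels, the summed level of each marker list in WT and wh5 could not be given.

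The chromosomal neighbours of the class I genes outside the cluster were also examined. Around b2m on chromosome 4, 1 of 22 neighbours was called in eye and 0 of 23 in brain. The called neighbour, dera, an aldolase gene of deoxyribose breakdown, stood at -0.21 (SE 0.05, adjusted p = 0.0143) by the authors' deposited table for eye, opposite in sign to b2m. The call of dera was lost under the empirical null (adjusted p = 0.392). Around b2ml on chromosome 8 none of 23 neighbours was called in either organ. Around tap1 on chromosome 16 none of 23 was called in brain and 1 of 21 in eye, si:dkey-256h2.1. For that gene the direction, the size and the result under the empirical null were not extracted. Over all genes 1.67% were called in eye and 0.736% in brain.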

How the data were processed

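RNA of 40 samples was compared by the authors, and 2 tables of comparisons were used, wh5 against WT in brain (19300 genes) and in eye (19429 genes). Per the submitters' processing notes, fastp, STAR, DESeq2 1.32.0 and build GRCz11 were used. The sources used here give no model formula, filters or strand setting, and do not say whether sex was a covariate. Per the file headers the authors deposited a log2 fold change with its SE, a base mean (a signal, the mean of normalised counts), a test statistic (a score, the log2 fold change over its SE), and p-values before and after adjustment. Base 2 for the logarithm is taken from the usual output of the tool the authors named, since no header states it. Recomputed Benjamini-Hochberg values over all listed genes matched the deposited ones to a relative difference of 0.00453. Depth per library is unknown, so precision rests on the deposited SEs. The labels do not say whether samples of a group are separate fish, so p-values measure the spread between samples.

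Genes were matched by exact symbol or symbol pattern. Members and lists were chosen with earlier results of these data known. The naming rule takes all 10 members and, of each list, the called genes and the 4 with the largest base means in eye. Genes named outside it were chosen after values were seen. Among them are psme1, nlrc5, rfx5, irf1b, mpeg1.1, havcr1, spi1a, coro1a, mhc2dbb, mhc1lba, mhc1uma, cd8a, crx, elavl3, brd2a and col11a2. Chromosomes and gene order came from the RefSeq table of GRCz12tu (96.1% of brain and 96.4% of eye genes placed). The organ test divided the difference of log2 fold changes by the square root of the sum of both squared SEs, and ignores any error shared by organs of the same fish. No sequences were used here. Python 3.11.15 was used with scipy 1.17.1, numpy 2.4.6, pandas 2.3.3 and matplotlib 3.10.9. The tests were tried on simulated data with errors drawn independently for each gene and organ. Errors shared by neighbouring genes or by organs were therefore not covered. For the empirical null only its centre and spread were computed there.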

Additional observations from a re-analysis of the deposited data

How the results depend on the processing

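With the empirical null, and with Bonferroni in place of Benjamini-Hochberg adjustment, the count of class I genes called in eye went from 1 to 0, since b2m then had an adjusted p of 0.443 and 1. The count stayed at 1 without the chromosome of cyp1b1 (b2m adjusted p = 0.0189), at a base mean minimum of 10 and at an adjusted p below 0.1, where 234, 321 and 642 genes were called in all. In brain it was 0 under each of these 5 alternatives. No class I gene was called as different between organs with an error correlation of 0.5 (b2m adjusted p = 0.073, 727 genes called in all). Nor was one with an empirical null, at the base mean minimum of 10 or, without that correlation, at an adjusted p below 0.1. All 10 genes passed the base mean minimum in both organs, so the medians did not move, and subtracting the median of all genes changed the sign of none of the 10 genes in either organ. No paired analysis was possible because the tables hold comparisons and no values of single samples. For the same reason replicates were not left out, sexes were not separated, and neither DESeq2 nor edgeR was run here.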
